A study of Mus musculus with 18 samples.

Results

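The interaction described here is the difference between 2 effects of AOS on the testis transcriptome of mice: the effect on a background of high fat diet with STZ, less the effect without it. It was computed for each gene on the log2(RPKM + 1) scale as (HFD_STZ_AOS minus HFD_STZ) minus (AOS minus control). RPKM is a gene's read number scaled to the length of the gene and to the total of the library. The members are the 13874 genes, of 20979 in the table, with a value of at least 1 RPKM in at least 3 of the 18 libraries. A positive value means that the AOS difference was more positive on the diet with STZ than without it.

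All mice were of the outbred ICR stock and 10 weeks old, and whole testis was sampled. The HFD_STZ_AOS group had the high fat diet, STZ and AOS at 10 mg/kg, and its counterpart HFD_STZ had the diet and STZ without AOS. The AOS group had 10 mg/kg of AOS without the diet or STZ, and the control group had none of these. A further 2 groups, HFD_STZ_AOS_FMT and HFD_STZ_control_FMT, joined the diet and STZ with fecal microbiota transfer (FMT). They helped to estimate the spread and are shown for the level of single genes only. Each group held 3 libraries. STZ is streptozotocin, a toxin of the insulin-producing beta cells, and with a high fat diet it serves as a model of diabetes. The labels do not spell out AOS, do not give its route or the timing of diet and STZ, and do not state that each library came from its own animal. The p-values therefore measure the spread between these libraries, which may be technical.

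A testis is a mixture of germ cells at successive stages, Sertoli cells that nurse them, Leydig cells that make testosterone, and interstitial macrophages and vessels. In whole tissue, fewer cells of a type and less RNA per cell cannot be told apart. An interaction asks whether a treatment acts differently in a healthy and in a diseased animal. Its error is larger than that of either simple effect, because it is made from 4 group means. Markers of Leydig cells, spermatocytes and spermatids were present in all 18 libraries, with Insl3 at 2119 RPKM or more and Prm1 at 11650 RPKM or more. The Sertoli cell marker Clu was at 451 RPKM or more, whereas Amh was low at 0.53 to 1.37 RPKM. Pearson correlations across genes were 0.988 to 0.995 within groups and 0.984 to 0.994 between groups. Genes at 1 RPKM or more numbered 13022 to 13490 per library. Depth was not given and was only roughly implied by the steps between low values, at about 11100000 to 13400000 reads per library, so that 1 RPKM in a transcript of 2 kb stood for about 24.3 reads. Of these libraries, HFD_STZ_AOS replicate 3 and control replicate 3 stood apart, with 157 and 159 RPKM of the epididymal gene Crisp1. Values without the libraries high in Crisp1 are given beside many of the results that these move, but not beside all.

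No gene passed the test for the interaction. Limma, with p-values adjusted over all tested genes by the method of Benjamini and Hochberg, called 0 of 13874 genes at an adjusted p under 0.05 (0%), and the smallest adjusted p was 0.495, shared by 5 genes. At an unadjusted p under 0.05 there were 640 genes, 4.61% of those tested. Of these, 399 (2.88%) had a positive value and 241 (1.74%) a negative value. The median over all genes was 0.02 and 56.4% of the values lay above 0. The median standard error was 0.12, and the 95% interval of a typical gene reached 0.257 to either side of its value. At this spread a difference in AOS effects of that size or less was not detectable for a typical gene. That interval is not adjusted for the number of genes, and larger differences also went uncalled. Hddc3, at 0.63 with a standard error of 0.12, had an adjusted p of 0.495 in limma.

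The AOS effects that make up the interaction had no call either. Limma called 0 genes for HFD_STZ_AOS against HFD_STZ (0%), with 1734 (12.5%) at an unadjusted p under 0.05, and 0 genes for AOS against control (0%), with 1923 (13.9%) at that level. Averaged over both backgrounds, 6 libraries stood against 6, and 325 genes were called (2.34%), of which 180 were higher (1.3%) and 145 lower (1.05%) with AOS. Among them were Ssbp4 (0.28 ± 0.04), Gtsf1 (0.20 ± 0.03), a piRNA pathway gene of germ cells, and Pde8a (-0.16 ± 0.03), a phosphodiesterase of cyclic AMP, each as average log2 difference with its standard error and an adjusted p of 0.0235 in limma. Their interactions were -0.04, -0.01 and -0.01. Of the 325 genes, 18 (5.54%) had an interaction with an unadjusted p under 0.05, a share near the 4.61% of all genes.
The number called for the average depended on single libraries and on transcript length. It was 0 without AOS replicate 1, HFD_STZ replicate 2, HFD_STZ_AOS replicate 1 or control replicate 2, 1 without AOS replicate 3, 3 without HFD_STZ replicate 1, 57 without control replicate 1 and 176 without control replicate 3. It was also 0 once each library's trend on transcript length had been removed. The slope of that trend, in log2 units per doubling of length, was -0.028 to -0.009 in HFD_STZ_AOS against 0.020 to 0.041 in HFD_STZ libraries, and -0.009 to 0.007 in AOS against 0.022 to 0.049 in control libraries. AOS libraries were thus relatively poorer in long transcripts on both backgrounds, and the part of this trend in the averaged result was not tested further.

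The 2 AOS effects share no library, so they can be set against each other. Across the 13874 genes their Pearson correlation was 0.088 and their Spearman correlation 0.323, and genes are not independent replicates. The signs were equal for 8933 genes (64.4%) and opposite for 4939 (35.6%). Groups that did not overlap on either background, all 3 AOS libraries on 1 side of all 3 without it, were found in the same direction for 800 genes (5.77%) and in opposite directions for 53 (0.382%). Of the 53, 35 (0.252%) were higher with AOS on the diet with STZ and lower with AOS without it, and 18 (0.13%) were the reverse. With the length trend removed, the Pearson correlation was 0.017, the Spearman correlation 0.240, and 355 genes were apart in the same direction (2.61%) against 50 in opposite directions (0.368%). Without the libraries high in Crisp1 the correlations were 0.260 and 0.357.

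**Figure D1:**
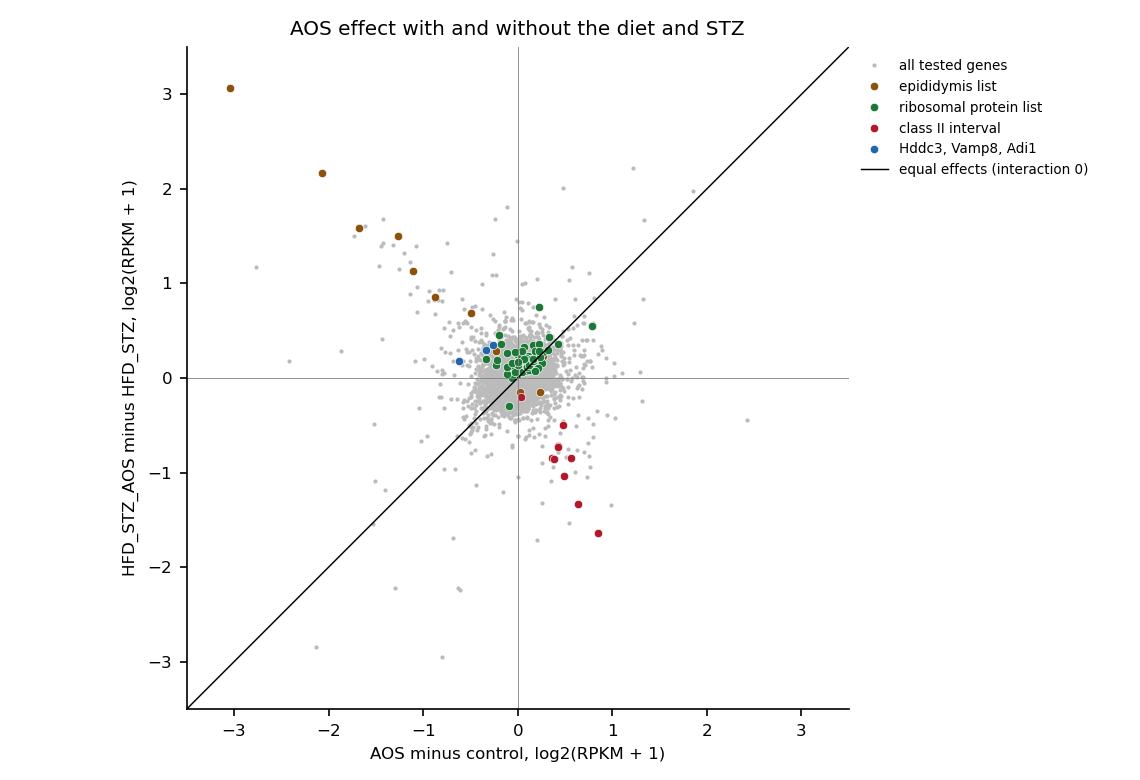
AOS effect of each tested gene on the high fat diet with STZ (y axis, HFD_STZ_AOS minus HFD_STZ) against the effect without them (x axis, AOS minus control), both as log2(RPKM + 1) differences of means of 3 libraries. Grey points are all 13874 tested genes, coloured points are the named groups, and the line marks equal effects. Class II interval genes lie at the lower right, with Tap1 at -1.64 on the y axis and 0.85 on the x axis, and epididymal genes at the upper left, with Crisp1 at 3.07 and -3.04.

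The negative interactions were led by genes that lie side by side in the class II interval of the major histocompatibility complex on chromosome 17. This interval encodes the proteins that show peptides to T cells and much of the machinery that makes and loads those peptides. Psmb8 and Psmb9 are catalytic subunits of the immunoproteasome, which cuts proteins into peptides. Tap1 and Tap2 form the transporter that carries the peptides into the endoplasmic reticulum for class I molecules. H2-Ab1, H2-Aa and H2-Eb1 are chains of the class II molecules, and H2-DMb1 and H2-Ob belong to chaperones that act in their peptide loading. Interferon gamma is known to induce most of these genes, and the testis is known for its low exposure to immune cells.

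Tap1 and Psmb9 are transcribed away from each other from a shared promoter. By the RefSeq start sites on GRCm38.p6, they begin 226 bases apart, and their windows from 250 bases before to 50 bases after the start overlap by 275 bases. The window of Tap1 is shown because these 2 genes had the largest negative values of the interval. It runs on the plus strand at chr17:34187306-34187605, and the capitals mark the 227 bases from the start site of Psmb9 to that of Tap1, which are 61.7% G or C.
Tap1: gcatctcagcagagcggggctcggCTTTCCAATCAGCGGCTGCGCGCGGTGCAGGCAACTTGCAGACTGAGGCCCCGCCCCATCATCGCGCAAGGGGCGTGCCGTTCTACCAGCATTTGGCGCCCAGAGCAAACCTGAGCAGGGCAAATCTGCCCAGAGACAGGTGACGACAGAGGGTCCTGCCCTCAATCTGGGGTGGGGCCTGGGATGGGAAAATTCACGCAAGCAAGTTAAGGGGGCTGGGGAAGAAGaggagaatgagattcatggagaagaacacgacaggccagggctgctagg

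Tap1 was low in all 3 HFD_STZ_AOS libraries. It stood at 0.53, 1.09 and 1.15 RPKM in HFD_STZ_AOS libraries, against 5.2, 3.35 and 6.68 RPKM in HFD_STZ libraries. Without the diet and STZ the order was the other way, with 3.79, 7.52 and 3.72 RPKM in AOS libraries against 2.87, 0.73 and 3.89 RPKM in control libraries. The groups were clear of each other on the diet with STZ and overlapped without it. In the transfer groups it stood at 5.09, 3.87 and 3.07 RPKM in HFD_STZ_AOS_FMT and at 2.99, 0.59 and 1.78 RPKM in HFD_STZ_control_FMT. All 3 HFD_STZ_AOS values lay below every AOS, HFD_STZ and HFD_STZ_AOS_FMT value, and within the range of the HFD_STZ_control_FMT values or just below it. The interaction was -2.49 ± 0.53 (log2 difference and standard error), with an unadjusted p of 0.00026 and an adjusted p of 0.566 in limma. Leaving out libraries or changing the settings gave -3.52 to -2.05.

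Psmb9 stood at 1.11, 0.54 and 1.52 RPKM in HFD_STZ_AOS against 4.63, 3.30 and 4.39 RPKM in HFD_STZ libraries. It stood at 2.36, 6.56 and 3.49 RPKM in AOS against 3.63, 0.90 and 2.43 RPKM in control libraries. Like Tap1, its groups were clear of each other only on the diet with STZ, and the interaction was -1.97 ± 0.48 with an adjusted p of 0.677 in limma. Psmb8 stood at 1.06, 0.94 and 1.35 RPKM in HFD_STZ_AOS against 2.14, 2.80 and 3.6 RPKM in HFD_STZ libraries, and at 1.55, 2.58 and 2.06 RPKM in AOS against 1.49, 0.59 and 1.19 RPKM in control libraries. It was the gene of the interval whose groups did not overlap on either background, in opposite directions, and its interaction was -1.41 ± 0.31 with an adjusted p of 0.566. Tap2 stood at 0.90, 1.36 and 1.25 RPKM in HFD_STZ_AOS against 3.46, 2.79 and 4.17 RPKM in HFD_STZ libraries. Without the diet and STZ it stood at 1.79, 4.36 and 2.15 RPKM in AOS against 1.71, 0.98 and 2.20 RPKM in control libraries. Its interaction was -1.52 ± 0.34 with an adjusted p of 0.628. For all 4 genes replicate 2 held the highest AOS value and replicate 2 the lowest control value. Without control replicate 2 the interaction of Tap1 had its smallest size, -2.05.

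The chaperones and chains of class II had the same sign. H2-DMb1 stood at 1.00, 0.84 and 0.89 RPKM in HFD_STZ_AOS against 2.41, 1.18 and 3.18 RPKM in HFD_STZ libraries, and its interaction was -1.15 ± 0.29. H2-Ob stood at 0.03, 0.10 and 0.20 RPKM in HFD_STZ_AOS against 1.17, 0.59 and 1.29 RPKM in HFD_STZ libraries, with an interaction of -1.21 ± 0.27. These levels correspond to few reads, so H2-Ob is less precise than its standard error on the log2(RPKM + 1) scale may imply. H2-Eb1 averaged 1.30 RPKM in HFD_STZ_AOS against 2.82 RPKM in HFD_STZ, with an interaction of -1.15 ± 0.39. H2-Ab1 was more abundant, with 15.1, 7.83 and 9.50 RPKM in HFD_STZ_AOS against 16.7, 11.97 and 17.3 RPKM in HFD_STZ libraries, which overlapped, and 14.2, 14.5 and 8.30 RPKM in AOS against 8.09, 9.12 and 7.86 RPKM in control libraries. Its interaction was -0.97 ± 0.39 with an unadjusted p of 0.024 in limma. Its partner chain H2-Aa stood at 10.99, 7.67 and 8.83 RPKM in HFD_STZ_AOS against 12.6, 9.11 and 10.3 RPKM in HFD_STZ libraries. The interaction of H2-Aa was smaller in size, at -0.23 ± 0.46. The 95% intervals overlapped, at -1.21 to 0.74 for H2-Aa and -1.80 to -0.15 for H2-Ab1. H2-Ea-ps, a pseudogene by its symbol in the reference annotation, had -1.24 ± 0.53.

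**Figure D2:**
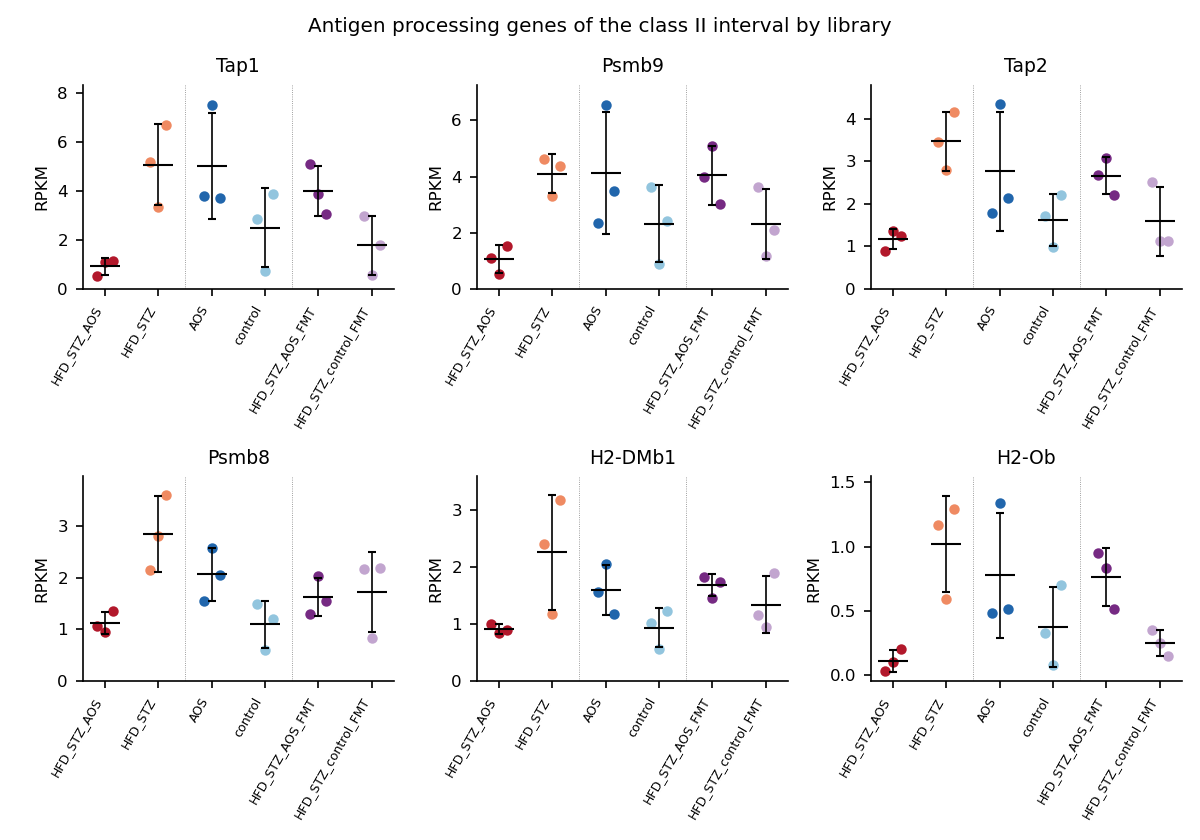
RPKM of 6 genes of the class II interval in each of the 18 libraries (y axis, linear) by group (x axis). Points are libraries, the horizontal line is the mean of 3 and the error bar is 1 SD. Tap1 lies at 0.53 to 1.15 RPKM in HFD_STZ_AOS, below all HFD_STZ libraries (3.35 to 6.68 RPKM).

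From H2-DMb1 to H2-Ea-ps, over 192 kb, 11 genes were in the table and 10 were tested. All 10 had a negative interaction, 9 of them with an unadjusted p under 0.05 (90%, against 1.74% of all tested genes in that direction), H2-Aa being the exception, and the median was -1.23. The bounds of this interval were chosen after its values had been seen, so these counts describe it and are no test. Alleles of the interval in these outbred mice could not be read from RPKM values, and their part was not tested. Within 250 kb of Tap1 on either side, 29 genes were in the table and 23 were tested. The 13 tested genes there that lay outside the interval had values of -0.26 to 0.35, among them the class I gene H2-K1 (-0.21), the class II chaperone gene H2-DMa (-0.26), Brd2 (0.03) and Ring1 (0.35), a Polycomb protein and the single one of the 13 with an unadjusted p under 0.05.

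**Figure D3:**
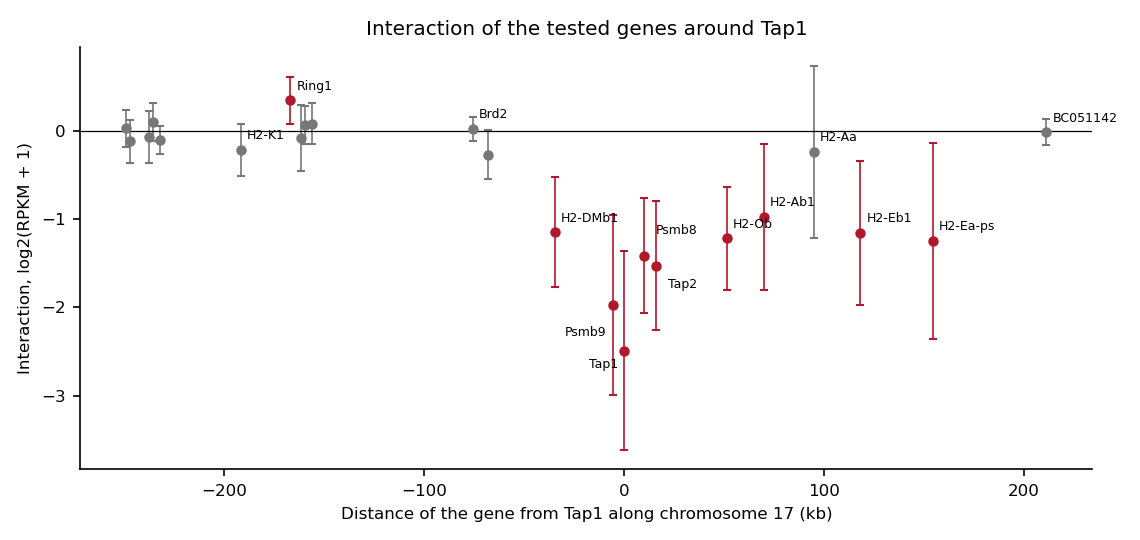
Interaction of the 23 tested genes around Tap1 (y axis, log2(RPKM + 1), with 95% intervals from limma) by the distance of the gene from Tap1 along chromosome 17 (x axis, kb). Red points have an unadjusted p under 0.05 and grey points do not. The negative values run from H2-DMb1 to H2-Ea-ps, with Tap1 lowest at -2.49, and the genes outside lie between -0.26 and 0.35.

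Within groups, several genes of the interval deviated in the same libraries as Tap1. Over all 18 libraries, the correlation of deviations from the group means of log2(RPKM + 1) with those of Tap1 was 0.86 for Tap2, 0.81 for H2-Ob, 0.79 for Psmb9, 0.77 for H2-Ea-ps and 0.69 for Psmb8. It was 0.67 for H2-DMb1, 0.58 for H2-Eb1, 0.47 for H2-Aa and 0.16 for H2-Ab1. These 9 values are a description with no test, since the genes were chosen for their values in 12 of these libraries.

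Antigen processing genes at other places had values closer to 0. Of 18 tested members of the antigen processing list, 6 had a negative interaction with an unadjusted p under 0.05 (33.3%, against 4.61% of all genes in either direction), and the list median was -0.17. All 6 lie in the interval. The 11 members outside it had values of -0.21 to 0.21, with 0 at an unadjusted p under 0.05 and 0 called by limma. These include B2m (-0.10), the light chain of class I, the invariant chain Cd74 (-0.20), the class I gene H2-D1 (-0.13), the immunoproteasome subunit Psmb10 (0.18) and Nlrc5 (0.21), the activator of class I genes. Under all alternatives the list median stayed negative, at -0.33 to -0.03.

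Markers of the cells that carry class II were set beside these values. Of 15 tested macrophage and leukocyte genes, 6 were positive and 9 negative, 0 had an unadjusted p under 0.05, and the median was -0.04. Without the libraries high in Crisp1 the median was -0.13, and Fcer1g, a signalling chain of Fc receptors, had 0.76 with an unadjusted p of 0.00213 in limma, against 0.62 with them. The summed level of the 25 markers in the table was 418 to 454 RPKM in HFD_STZ_AOS against 418 to 424 RPKM in HFD_STZ libraries, and 432 to 469 RPKM in AOS against 423 to 433 RPKM in control libraries. Most of the sum was Aif1, at 332 RPKM in control libraries, so the sum says little about the other markers. Cd68 and Adgre1 averaged 3.31 and 1.37 RPKM in control libraries. None of the 25 was at 0 throughout, and 11 stayed under 1 RPKM in all 12 libraries, among them the leukocyte marker Ptprc, the T cell gene Cd3e and the B cell gene Cd79a. The part of these cells in the class II values was not tested.

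Interferon response genes leaned the same way with less distance from their error. Of 40 listed genes 18 were tested, 16 had a negative value and 1, Oasl2, an unadjusted p under 0.05 (5.56%, against 4.61% of all genes). The list median was -0.17, and -0.31 to -0.09 under the alternatives. Oasl2, an interferon-induced protein, had -0.70 ± 0.32, and Irf7, a transcription factor of the interferon response, had -1.03 ± 0.48. Irf7 stood at 0.58, 0.52 and 1.03 RPKM in HFD_STZ_AOS against 1.25, 2.74 and 0.94 RPKM in HFD_STZ libraries, and at 0.88, 0.55 and 4.38 RPKM in AOS against 1.23, 0.51 and 0.85 RPKM in control libraries. Single libraries, HFD_STZ replicate 2 and AOS replicate 3, were high on either background. The same 2 libraries were highest in their groups for Oasl2, at 4.53 and 5.37 RPKM, and neither was the highest of its group for Tap1.

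Further negative values were scattered over the genome. Arg2, an arginase of mitochondria, stood at 4.02, 7.40 and 7.54 RPKM in HFD_STZ_AOS against 10.8, 6.63 and 9.94 RPKM in HFD_STZ libraries, which overlapped. It stood at 5.86, 6.03 and 7.47 RPKM in AOS against 4.93, 2.80 and 2.46 RPKM in control libraries, which did not, and the interaction was -1.28 ± 0.32. Zfp341, a zinc finger protein, stood at 1.08, 1.22 and 1.16 RPKM in HFD_STZ_AOS against 1.39, 1.56 and 1.36 RPKM in HFD_STZ libraries, and at 1.33, 1.12 and 1.44 RPKM in AOS against 0.82, 0.94 and 0.64 RPKM in control libraries. Its groups did not overlap on either background, with an interaction of -0.53 ± 0.12 and an adjusted p of 0.566 in limma. Runx1t1, a transcriptional corepressor, had -0.51 ± 0.12, Apoa2, a protein of high density lipoprotein, -1.58 ± 0.41, the olfactory receptor gene Olfr1280 -1.60 ± 0.39 and the predicted gene Gm8068 -1.78 ± 0.46. Adjusted p-values of these 4 genes in limma were 0.677 to 0.815. Without the libraries high in Crisp1, Apoa2 had -1.07 and Gm8068 -1.37, both smaller in size. Runx1t1 then had -0.56 and Olfr1280 -1.72.

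The positive interactions nearest to a call were smaller in size. Hddc3 had the smallest p of all 13874 genes. It encodes a homologue of the bacterial enzyme that breaks down the alarmone ppGpp, and the human protein is known as an NADPH phosphatase. Hddc3 stood at 11.3, 10.6 and 14.4 RPKM in HFD_STZ_AOS against 9.73, 10.1 and 9.01 RPKM in HFD_STZ libraries. Without the diet and STZ it stood at 6.76, 6.89 and 7.15 RPKM in AOS against 9.57, 8.96 and 8.55 RPKM in control libraries. Groups did not overlap on either background, and the AOS libraries were higher in the first and lower in the second. The interaction was 0.63 ± 0.12, with an unadjusted p of 8.74e-05 and an adjusted p of 0.495 in limma. It was 0.51 to 0.71 under the alternatives. In the transfer groups Hddc3 averaged 9.50 ± 0.63 RPKM in HFD_STZ_AOS_FMT and 8.31 ± 0.19 RPKM in HFD_STZ_control_FMT (SD, n = 3 each).

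Vamp8, a SNARE protein of vesicle and autophagosome fusion, stood at 9.26, 9.44 and 9.52 RPKM in HFD_STZ_AOS against 6.49, 7.12 and 7.87 RPKM in HFD_STZ libraries. It stood at 5.47, 6.20 and 5.11 RPKM in AOS against 7.95, 6.32 and 6.5 RPKM in control libraries. Again no groups overlapped, in opposite directions, and the interaction was 0.62 ± 0.12 with an adjusted p of 0.495 in limma. Adi1, an enzyme of methionine salvage, stood at 4.50, 4.31 and 6.47 RPKM in HFD_STZ_AOS against 4.25, 4.73 and 3.98 RPKM in HFD_STZ libraries, which overlapped. It stood at 3.24, 3.10 and 3.05 RPKM in AOS against 5.58, 4.49 and 6.02 RPKM in control libraries, which did not. Its interaction was 0.80 ± 0.16 (adjusted p of 0.495 in limma), and 0.57 without the libraries high in Crisp1, which hold its highest HFD_STZ_AOS and its highest control value.

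Zfp81, a zinc finger protein, stood at 7.25, 9.80 and 9.60 RPKM in HFD_STZ_AOS against 7.13, 5.68 and 6.90 RPKM in HFD_STZ libraries, and at 6.66, 4.53 and 4.36 RPKM in AOS against 6.70, 6.94 and 7.74 RPKM in control libraries. Exosc8, a subunit of the RNA exosome, stood at 6.08, 6.82 and 7.03 RPKM in HFD_STZ_AOS against 5.11, 5.36 and 6.04 RPKM in HFD_STZ libraries, and at 4.51, 4.55 and 5.24 RPKM in AOS against 5.58, 6.31 and 5.65 RPKM in control libraries. Neither gene had overlapping groups, with interactions of 0.79 ± 0.19 and 0.48 ± 0.12 and adjusted p of 0.677 in limma. The gaps were narrow, as for Exosc8 with 6.08 against 6.04 RPKM for the closest libraries on the diet with STZ. AI467606 had 0.61 ± 0.12, Myl6, a light chain of myosin, 0.28 ± 0.07, Igf2bp1, an mRNA-binding protein, 0.59 ± 0.15 and the predicted gene Gm13305 1.45 ± 0.37. Myl6, at 116, 118 and 122 RPKM in HFD_STZ_AOS against 94.2, 96.1 and 102 RPKM in HFD_STZ libraries, had an AOS difference of 0.28 on the diet with STZ and of -0.00 without it.

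**Figure D4:**
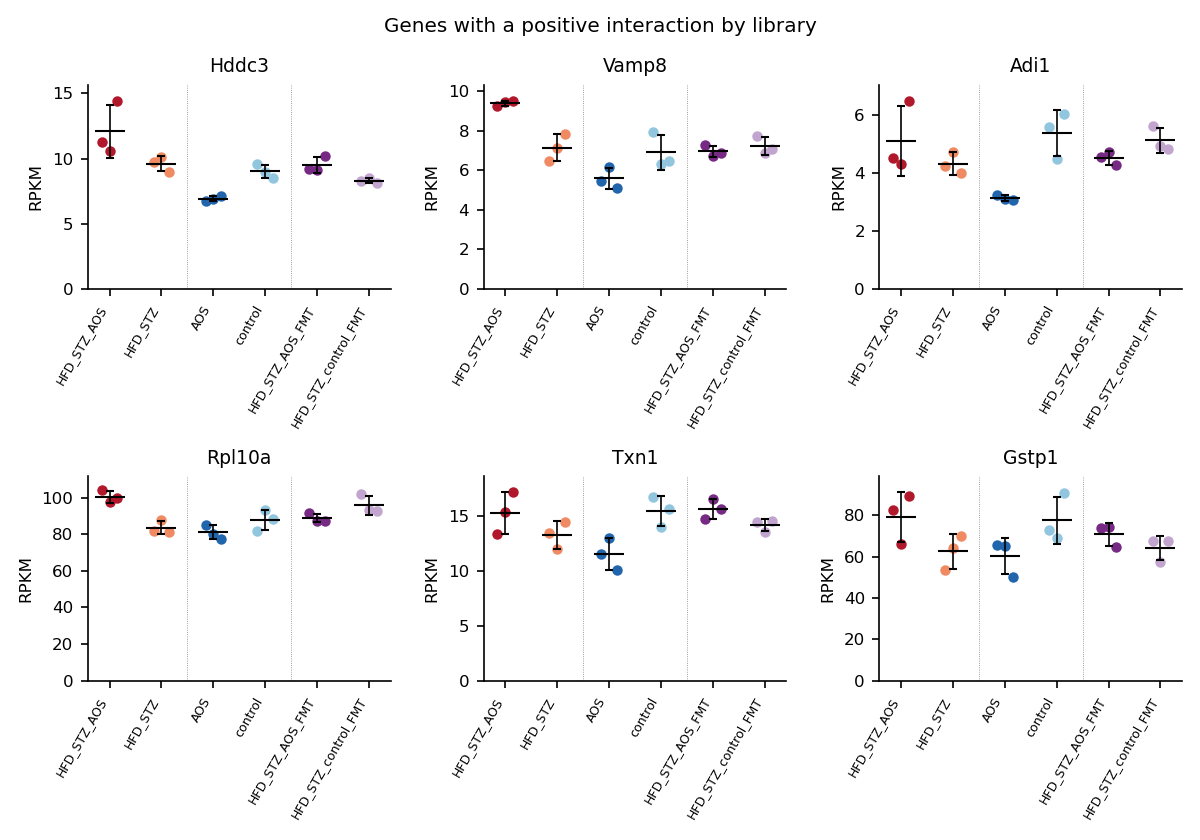
RPKM of 6 genes with a positive interaction in each of the 18 libraries (y axis, linear from 0) by group (x axis). Points are libraries, the horizontal line is the mean of 3 and the error bar is 1 SD. Hddc3 lies at 10.6 to 14.4 RPKM in HFD_STZ_AOS above all HFD_STZ libraries, and at 6.76 to 7.15 RPKM in AOS below all control libraries.

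Ribosomal proteins, the structural parts of the translation machinery, leaned positive as a group. Of 79 listed genes, all tested, 69 had a positive and 10 a negative interaction, and 16 had a positive value with an unadjusted p under 0.05 (20.3%, against 2.88% of all tested genes in that direction). The list median was 0.09, against 0.02 for all genes, and 0 members were called. Under every scaling and other alternative the median stayed positive, at 0.06 to 0.11. Without the libraries high in Crisp1, 9 members had an unadjusted p under 0.05, and with the length trend removed 13. The list's AOS differences had medians of 0.18 on the diet with STZ and 0.09 without it, so both were positive. Of its 79 members, 16 were among the 180 genes called higher for the average (20.3%, against 1.3% of all tested genes). With the length trend removed, 0 genes were called for the average. The 2 medians are given without removal of that trend.
Rpl10a stood at 104, 97.8 and 99.6 RPKM in HFD_STZ_AOS against 81.8, 87.6 and 80.9 RPKM in HFD_STZ libraries. It stood at 85.3, 80.2 and 77.6 RPKM in AOS against 81.9, 93.1 and 88.3 RPKM in control libraries, and the interaction was 0.38 ± 0.08 (adjusted p of 0.495 in limma). Rpl36a, on the X chromosome, stood at 47.8, 42.1 and 48.3 RPKM in HFD_STZ_AOS against 31.4, 32.5 and 35.9 RPKM in HFD_STZ libraries, with an interaction of 0.66 ± 0.16. Both were clear of HFD_STZ on the diet with STZ and overlapped control without it. Processed copies of ribosomal protein genes are common in the genome, and reads shared with them could not be told apart. Genes of oxidative phosphorylation had 2 of 74 members at an unadjusted p under 0.05 (2.70%, against 4.61% of all genes), the higher being Atp5g2 at 0.30 ± 0.10. The count was 1 to 11 under the alternatives, and 4 without the libraries high in Crisp1. The list median was 0.03, and 0.008 with the length trend removed.

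Antioxidant genes, which remove peroxides and conjugate electrophiles, had 4 positive members and 1 negative member of 31 at an unadjusted p under 0.05 (16.1%, against 4.61% of all genes). The list median was 0.09. The count was 3 of 31 and the median 0.05 without the libraries high in Crisp1, and without AOS replicate 1 the count was 2. Txn1, the cytosolic thioredoxin, stood at 13.3, 15.4 and 17.2 RPKM in HFD_STZ_AOS against 13.4, 11.9 and 14.5 RPKM in HFD_STZ libraries, which overlapped. It stood at 11.5, 13.02 and 10.1 RPKM in AOS against 16.7, 14 and 15.6 RPKM in control libraries, which did not. The interaction of Txn1 was 0.58 ± 0.14, and 0.49 without the libraries high in Crisp1. Gstp1, a glutathione transferase, stood at 82.4, 65.9 and 89.5 RPKM in HFD_STZ_AOS against 53.5, 64.2 and 70.0 RPKM in HFD_STZ libraries, and at 65.4, 65.3 and 50.03 RPKM in AOS against 73.0, 68.9 and 90.6 RPKM in control libraries. Its highest values were again those of the libraries high in Crisp1, and the interaction of 0.69 ± 0.19 was 0.48 without them. The transferase Gsta4 had 0.32 and the quinone reductase Nqo1 0.54, against -0.21 for the extracellular dismutase Sod3. Lcn2, a lipocalin that binds siderophores, was in the glucocorticoid and fasting response list. It stood at 368, 483 and 748 RPKM in HFD_STZ_AOS against 585, 401 and 521 RPKM in HFD_STZ libraries, and at 227, 305 and 215 RPKM in AOS against 431, 476 and 387 RPKM in control libraries. Its interaction of 0.84 ± 0.30 came from lower values in AOS than in control, with overlap on the diet with STZ, and was 0.64 without the libraries high in Crisp1.

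The largest interactions by size were those of Crisp1 and Cd52, genes of the epididymis, the duct that leaves the testis. Crisp1, a secreted protein of its epithelium, stood at 2.93, 0.45 and 157 RPKM in HFD_STZ_AOS against 0.15, 0.15 and 0.15 RPKM in HFD_STZ libraries. It stood at 0.05, 0.10 and 0.05 RPKM in AOS against 2.71, 0.15 and 159 RPKM in control libraries. Although the groups were apart on either background, a single library, replicate 3, carried nearly all of the HFD_STZ_AOS and of the control level. The closest libraries were at 0.45 against 0.15 RPKM on the diet with STZ and at 0.10 against 0.15 RPKM without it. Such levels correspond to few reads. The interaction was 6.11 ± 2.74 with an adjusted p of 0.999 in limma, and 2.01 without the libraries high in Crisp1. Cd52, a surface peptide of epididymal epithelium and lymphocytes, had 131 RPKM in HFD_STZ_AOS replicate 3 and 133 RPKM in control replicate 3, at most 6.37 RPKM in the other HFD_STZ_AOS and at most 2.56 RPKM in the other control libraries. Of 29 listed epididymal genes 13 were tested, 9 were positive and 1 had an unadjusted p under 0.05 (7.69%, against 4.61% of all genes). The median of 1.18 was 0.16 without the libraries high in Crisp1. Members could pass the filter on low values through these libraries, and with no filter the median of the list was 0.03, so the count over the tested members is no support. The summed level of the list was 356 to 807 RPKM in HFD_STZ_AOS against 319 to 343 RPKM in HFD_STZ libraries. It was 337 to 392 RPKM in AOS against 283 to 693 RPKM in control libraries. In HFD_STZ libraries Crisp1 was at 0.15 and Cd52 at 2.55 to 3.29 RPKM, so most of the sum there came from other members. Of the 29, 4 were at 1 RPKM or more in all 12 libraries and 16 stayed under 1 RPKM. The sum therefore says little about most members. In all 12 libraries 6 of the 29 were at 0, Lcn5, Lcn8, Lcn10, Spink12, Defb15 and Defb18. Of all tested genes 110 had an interaction past 1 in size, and 7 of these are in the epididymis list. The list does not hold every gene with group means like those of Crisp1. Defb28, outside it, averaged 7.12 and 8.12 RPKM in HFD_STZ_AOS and control, and 0 RPKM in HFD_STZ and AOS. Serpina16, also outside it, averaged 8.02 and 8.61 RPKM against 0.08 and 0.11 RPKM in the same order. Others past 1 in size, as Tap1 and Gm10487 (-2.87), lacked this pattern. How many of the 110 rest on the libraries high in Crisp1 was not counted. The third largest was that of the predicted gene Gm4836, at 3.94 ± 2.38, which is not in the list either.

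Other somatic lists had medians that were nearer to 0 or reversed without the same libraries. Adipose tissue genes had 0 of 14 with an unadjusted p under 0.05 and a median of 0.32, and -0.02 without the libraries high in Crisp1. Their summed level was 417 to 576 RPKM in HFD_STZ_AOS against 414 to 434 RPKM in HFD_STZ libraries, and 406 to 443 RPKM in AOS against 425 to 450.5 RPKM in control libraries. Most of this sum was Acsl1, at 242 to 261 RPKM in these 12 libraries. Of the 17 genes summed, 9 were at 1 RPKM or more in all 12, and Lep, Slc2a4 and Ucp1 were under 1 RPKM in all 12. Genes of the extracellular matrix and peritubular myoid cells had 25 of 27 positive values and a median of 0.17. The negative Fbln1, at -0.40, was the 1 member with an unadjusted p under 0.05 (3.70%, against 4.61% of all genes). Without the libraries high in Crisp1 there were 0 such members and the median was 0.03. Endothelial genes had a median of 0.08, and -0.07 without them. With an unadjusted p under 0.05 there were 2 of 15 (13.3%, against 4.61% of all genes), Sox17 at -0.41 and Egfl7 at -0.44. Without the libraries high in Crisp1 there were 4, where 4.52% of all genes had such a p. The count was 1 to 4 under the alternatives. The part of the epididymal and adipose levels in these medians was not tested.

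Lists of germ cells and Sertoli cells stood near 0, and those of Leydig cells and cholesterol synthesis leaned positive with all libraries. Leydig cell genes had 17 of 20 positive values, a median of 0.10 and 0 with an unadjusted p under 0.05 (0%, against 4.61% of all genes). Star, which feeds cholesterol into the mitochondria of Leydig cells, had 0.31 ± 0.29, and without the libraries high in Crisp1 it had -0.16. Cyp17a1, a steroid hydroxylase, had 0.20 ± 0.18 and Insl3, a peptide hormone of these cells, 0.25 ± 0.23. Cholesterol synthesis genes, which supply the steroid precursor, had 20 of 24 positive values, a median of 0.14 and 1 with an unadjusted p under 0.05 (4.17%), Mvd at 0.37 ± 0.15, and 0 without the libraries high in Crisp1. The Leydig and cholesterol medians were 0.02 and 0.05 without the libraries high in Crisp1. Sertoli cell genes had a median of 0.03, with Amh at -0.05 ± 0.22 and Cldn11, a tight junction protein, at -0.15 ± 0.11. Among germ cells, spermatogonial genes had a median of -0.05, meiotic genes 0.03, round spermatid genes 0.01, elongating spermatid genes -0.00 and genes of cilium and axoneme -0.00. The meiotic and both spermatid lists had 0 members with an unadjusted p under 0.05 (0%), the spermatogonial list had 1 of 15 (6.67%), Id4 at -0.28, and the cilium list 3 of 38 (7.89%), among them Wdr60 at -0.27 and Ift74 at 0.19. Without the libraries high in Crisp1 Id4 was at -0.12 and Wdr60 at -0.16, both with an unadjusted p over 0.05 in limma (0.131 and 0.0532), and the spermatogonial list had 0 such members, with a median of -0.12. The cilium list then had 1, the meiotic and the round spermatid list 1 each and the elongating spermatid list 0. The Sertoli list had a median of -0.05 without them, with 1 such member.
Sycp3, of the synaptonemal complex, had 0.10 ± 0.10 and Stra8, which opens meiosis, -0.16 ± 0.21. Prm1 and Tnp1, which package sperm DNA, had -0.01 ± 0.13 and -0.05 ± 0.11. Their AOS differences were 0.23 on the diet with STZ and 0.24 without it for Prm1, and 0.22 and 0.27 in the same order for Tnp1. The 95% interval of the interaction was -0.27 to 0.26 for Prm1 and -0.29 to 0.19 for Tnp1.

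**Figure D5:**
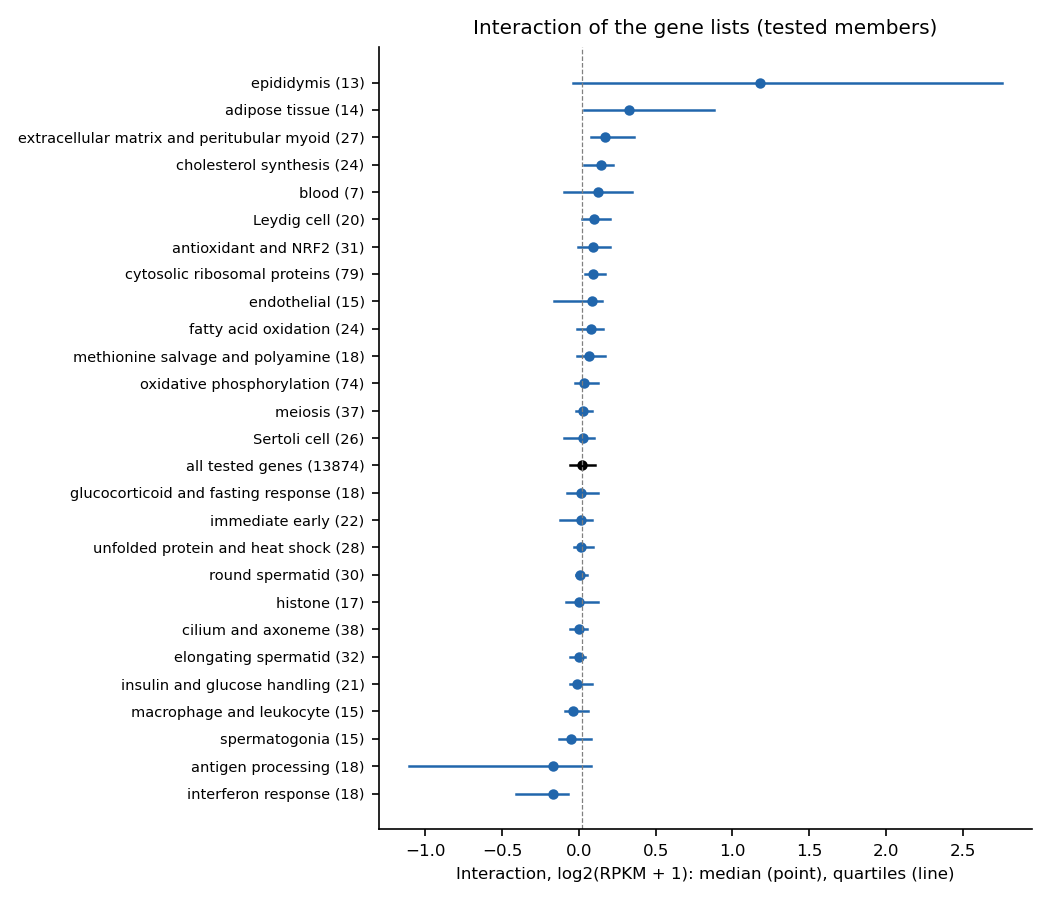
Interaction of the tested members of 26 gene lists and of all 13874 tested genes (black), as median (point) and quartiles (line) on the log2(RPKM + 1) scale (x axis), with the number of tested members in brackets. The dashed line marks the median of all genes. The epididymis list stands highest at 1.18, the antigen processing and interferon response lists lowest at -0.17 each, and the germ cell lists stand between -0.05 and 0.03.

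The remaining lists are given by median and number of members with an unadjusted p under 0.05, against 0.02 and 4.61% for all genes. Fatty acid oxidation had 0.08 with 0 of 24 (median 0.00 without the libraries high in Crisp1), insulin and glucose handling -0.01 with 0 of 21, immediate early genes 0.01 with 0 of 22, and histones 0.00 with 0 of 17. Unfolded protein and heat shock genes had 0.01 with 2 of 28 (7.14%), Hsph1 at -0.22 and Xbp1 at 0.35. This list had 0 such members without the libraries high in Crisp1, with Hsph1 at -0.19 and Xbp1 at 0.18. Methionine salvage and polyamine genes had 0.06 with 2 of 18 (11.1%), Adi1 and Arg2 in opposite directions. Glucocorticoid and fasting response genes had 0.02 with 2 of 18 (11.1%), Lcn2 and Per1 in opposite directions, and blood genes 0.12 with 0 of 7. The blood median was 0.04 without the libraries high in Crisp1 and -0.01 with the length trend removed.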

How the data were processed

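Testis RNA of 18 samples in 6 groups of 3 was sequenced. Per the labels' protocols, frozen testes were lysed in Trizol and a column kit gave total RNA for Illumina libraries. The submitters' processing notes name Bowtie 0.12.2 and mm10. The authors deposited RPKM values per gene symbol, the unit being inferred from the values, and the counting tool, annotation and use of strand are not given in the sources used here. RPKM is relative, so a shift in abundant or long transcripts moves other genes. Of 20985 rows, 6 with repeated symbols were left out and 22 were dates.

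Values were taken as log2(RPKM + 1), which understates changes of low genes. Limma 3.58.1 in R 4.3.3 (trend, 6 group coefficients over 18 samples, 12 residual and 3.71 prior degrees of freedom) gave two-sided tests of 4 contrasts, adjusted by Benjamini and Hochberg with a threshold of 0.05. It was tested on simulated data. Members and the 26 lists were chosen with earlier results of these data known. The named genes were up to 15 called genes per direction or, with fewer than 5 called, the 12 with the smallest p and a group mean of at least 1 RPKM, the 2 members of each list with the smallest p, and a panel of 14 genes, other genes being chosen after their values were seen. Positions and lengths came from GENCODE vM21 (GRCm38), in which 96.5% of symbols matched and 13578 tested genes (97.9%) had a length, and promoter windows from RefSeq. Some results are not reported here, and counts include them. Tables and plots were made with Python 3.11.15 and matplotlib 3.10.9. Alternatives were other scaling, no filter, a pseudocount of 0.1, 12 samples only, a replicate block, robust empirical Bayes, removal of the length trend (lowess, span 0.3), each replicate left out and, chosen after seeing the data, omission of the 4 libraries with at least 100 RPKM of Crisp1, 2 of them in the interaction.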

Additional observations from a re-analysis of the deposited data

Results flagged for a closer look

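For 9 named genes the AOS libraries did not overlap those without AOS on either background, in opposite directions. None of these differences passed limma's test of the interaction over all genes, and 53 of all tested genes (0.382%) had such groups. The 9 genes were named for a small interaction p, overall or within a list, in the same libraries. Their separation is therefore no further support.

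Positive interactions of this kind were 0.63 for Hddc3, 0.62 for Vamp8, 0.79 for Zfp81, 0.48 for Exosc8, 0.30 for Atp5g2, a subunit of the ATP synthase, and 6.11 for Crisp1. Crisp1 rests on replicate 3 of HFD_STZ_AOS and replicate 3 of control. Its closest libraries without the diet and STZ were at 0.10 RPKM in AOS and 0.15 RPKM in control, levels of few reads. Atp5g2 stood at 51.7, 57.9 and 56.4 RPKM in HFD_STZ_AOS against 49.5, 48.3 and 50.8 RPKM in HFD_STZ libraries, and at 49.0, 50.8 and 47.0 RPKM in AOS against 55.4, 52.7 and 54.2 RPKM in control libraries. Negative interactions were -1.41 for Psmb8, -0.53 for Zfp341 and -1.60 for Olfr1280. Olfr1280 stood at 1.33, 0.17 and 0.73 RPKM in HFD_STZ_AOS against 1.55, 2.70 and 2.98 RPKM in HFD_STZ libraries, and at 1.70, 2.87 and 2.35 RPKM in AOS against 1.36, 0.73 and 1.46 RPKM in control libraries.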

How the results depend on the processing

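Under all 20 alternatives limma called 0 genes for the interaction, with 3.99% to 5.89% of genes at an unadjusted p under 0.05 and a smallest adjusted p of 0.136 to 0.929. The count for AOS averaged over both backgrounds, 325, was 200 with scaling by median ratios, 142 with no filter, 565 with 12 samples only, 0 with the length trend removed and 76 without the libraries high in Crisp1. With each replicate left out in turn it was 0 to 374. For AOS on HFD_STZ, 0 became 1 with no filter and 2 without the libraries high in Crisp1, and leaving out replicates gave 0 to 1. For AOS without HFD_STZ, leaving out replicates gave 0 to 3. Of 1557 values of the 78 named genes, 1540 kept their sign and 17 reversed, in 6 genes. Without the libraries high in Crisp1 the reversed values were 0.018 for Prm1, -0.16 for Star and 0.031 for Amh. With replicates left out, the ranges that cross 0 were -0.26 to 0.12 for Cd68, -0.0561 to 0.0724 for Prm1, -0.090 to 0.0056 for Tnp1, -0.037 to 0.50 for Star, -0.19 to 0.067 for Amh and -0.28 to 0.016 for Stra8. The cause was not tested. Replicate numbers were not taken to pair the libraries, since no label says so and not every pair passed 0.1. Same-numbered libraries of different groups had correlations of their deviations of -0.051 to 0.380, with 3 of 18 over 0.1, and 7 of 12 were closest to their own number. Those 3 pairs are all 3 of HFD_STZ_AOS with control, at 0.171, 0.212 and 0.380, where libraries of other numbers had -0.279 to 0.129. With the replicate block the interaction had 0 calls and 696 genes at an unadjusted p under 0.05, and the average had 418 calls. With 3 libraries per group and a low implied depth, genes under 1 RPKM are measured from few reads.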
